A study of Mus musculus with 8 samples.

Results

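Interferon-stimulated genes are the genes that cells switch on when an interferon binds its receptor, and 39 of them were followed here in the acid- and pepsinogen-secreting corpus of the mouse stomach. They were taken by gene symbol from the deposited count table as sensors of viral nucleic acid, STAT and IRF transcription factors, antiviral effectors and interferon-inducible GTPases. All 39 had a row among the 54532 genes of the table. A filter on low counts left 15862 genes to test, and 38 of the 39 were among them. The remaining one was Ido1. In 4 mutants set against 4 controls, 11 of the 38 genes (28.9%) rose and none fell, where 9.39% of all genes tested rose and 10.8% fell (20.2% in either direction). Those that rose were the sensors Ddx58 and Zbp1, the transcription factors Irf1, Irf8, Irf9 and Stat2, the oligoadenylate synthetase genes Oas3 and Oasl2, the GTPase gene Irgm2, and Parp9 and Parp14. Isg15 and the Ifit genes, which are widely used as signs of an interferon response, were not called.

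The mutants carried 1 floxed copy of PKAcaR and the Six2-Cre transgene (Six2-Cre+/- PKAcaR fl/wt). The controls carried the same Cre without the floxed copy (Six2-Cre+/- PKAcaR wt/wt), so that Cre was present in every animal. From the literature, PKAcaR is known as an allele of Prkaca, the gene of a catalytic subunit of protein kinase A, whose product after recombination no longer needs cyclic AMP to be active. Cre was placed under Six2, so recombination depends on where and when that promoter has been active, which the counts do not show. The strain background was mixed (C57BL/6 and CD1), no treatment was given, each library was 1 animal, and ages were not given in the sources used here. The library totals were between 18184281 and 23814720 reads in mutants and between 18942308 and 22814152 reads in controls.

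Levels are given in CPM, read counts set against a library size scaled with TMM factors, always for mutants 1 to 4 and then for controls 1 to 4. A fold change is mutant over control on the log2 scale with its standard error (SE), and a gene was called where the Benjamini-Hochberg adjusted p of edgeR's quasi-likelihood test over all genes was under 0.05. Some libraries stood apart. The correlation of log2 CPM across genes was 0.841 to 0.882 between mutant 2 and each other mutant, and 0.980 or more within the rest of that group. Mutant 3 and control 3 held transcripts of squamous epithelium, with 3776 and 484 reads of the basal keratin gene Krt5, against at most 1 in any other library. Prkaca, the targeted gene, was at 36.8, 40.6, 37.0 and 37.0 CPM in mutants, against 85.8, 79.7, 77.6 and 77.0 CPM in controls. Transcripts of Pgc, the pepsinogen gene of the chief cell, took 0.107% to 4.60% of reads in mutants and 20.7% to 31.2% in controls.

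Interferons of type I act through a complex that holds Stat2 and Irf9 and binds the interferon-stimulated response element (ISRE) in promoters. Type II interferon acts through the gamma-activated site (GAS), and it drives many of the inducible GTPases through Irf1. Many of these genes are known to be expressed at a low level without infection, and both epithelial and immune cells can induce them.

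Promoter sequences show how far the genes share these letters. RefSeq promoter windows of GRCm38.p6, from 250 bases before to 50 bases after the start of transcription, were matched by symbol for 27 of the 39 genes. Those without a match were Dhx58, Zbp1, Mx1, Mx2, Rtp4, Oas2, Usp18, Gbp4, Iigp1, Parp9, Parp14 and Ido1. An ISRE-type match was GAAA, then NN, then GAAA, on either strand, and a GAS-type match was TTC, then NNN, then GAA, a pattern that reads the same on both strands. An ISRE-type match stood in 16 of 27 genes (59.3%), against 3.99% of the 27025 genes with a window, and a GAS-type match in 9 of 27 (33.3%), against 9.55%. Both stood in 5 (18.5%), against 0.614%. In Bst2 a match of each type overlapped. A match is a description of letters, not of a bound site.

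The next sites, each with up to 10 bases on either side and the match in capitals, are from genes that rose. The sites of Ddx58 (chr4:40239804-40239833, minus strand), Stat2 (chr10:128270266-128270295, plus strand), Oas3 (chr5:120777715-120777744, minus strand) and Irgm2 (chr11:58214903-58214932, plus strand) are of ISRE type. Those of Irf1 (chr11:53769914-53769942, plus strand) and Irf8 (chr8:120736177-120736205, plus strand) are of GAS type.
Ddx58: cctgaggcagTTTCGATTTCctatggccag
Stat2: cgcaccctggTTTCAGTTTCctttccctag
Oas3: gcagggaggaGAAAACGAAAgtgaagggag
Irgm2: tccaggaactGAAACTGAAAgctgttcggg
Irf1: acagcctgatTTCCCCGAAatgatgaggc
Irf8: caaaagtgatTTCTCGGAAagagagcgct

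ISRE-type matches also stood in genes that were not called. The following are from Ifit1 (chr19:34640775-34640804, plus strand), Ifit3 (chr19:34583363-34583392, plus strand), Rsad2 (chr12:26456553-26456582, minus strand), Gbp2 (chr3:142620594-142620623, plus strand) and Igtp (chr11:58199512-58199541, plus strand). Igtp is a neighbour of Irgm2.
Ifit1: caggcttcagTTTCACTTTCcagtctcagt
Ifit3: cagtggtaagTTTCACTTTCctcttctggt
Rsad2: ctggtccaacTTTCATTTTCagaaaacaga
Gbp2: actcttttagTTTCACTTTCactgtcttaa
Igtp: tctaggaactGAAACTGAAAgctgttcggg

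The whole windows of Irgm2 (chr11:58214727-58215026, plus strand) and Isg15 (chr4:156200769-156201068, minus strand) contrast a gene that rose with one that was not called. Both carry ISRE-type letters, in capitals. In Isg15 there were 3 overlapping matches, and in Irgm2 the capitals also mark a GAS-type match just before the ISRE-type one.
Irgm2: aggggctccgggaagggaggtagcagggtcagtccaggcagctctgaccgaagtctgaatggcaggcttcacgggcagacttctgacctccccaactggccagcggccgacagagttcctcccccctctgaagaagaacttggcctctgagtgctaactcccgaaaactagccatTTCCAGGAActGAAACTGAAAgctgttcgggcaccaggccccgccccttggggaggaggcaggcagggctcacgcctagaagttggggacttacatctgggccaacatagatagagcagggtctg
Isg15: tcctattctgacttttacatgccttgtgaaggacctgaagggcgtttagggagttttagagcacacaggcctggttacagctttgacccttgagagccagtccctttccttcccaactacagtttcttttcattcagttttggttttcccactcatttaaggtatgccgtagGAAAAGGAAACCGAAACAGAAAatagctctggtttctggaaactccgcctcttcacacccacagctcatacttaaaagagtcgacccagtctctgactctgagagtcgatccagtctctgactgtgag

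The letters stood in genes that rose and in genes that were not called, and the difference in shares was not tested. Of the 8 genes with a window that rose, 4 held an ISRE-type match and 3 a GAS-type match. Of the 19 with a window that were not called, 12 held an ISRE-type and 6 a GAS-type match. All 6 inducible GTPases with a window held the ISRE-type letters, against 1 of 5 transcription factors, and that one was Stat2.

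**Figure D1:**
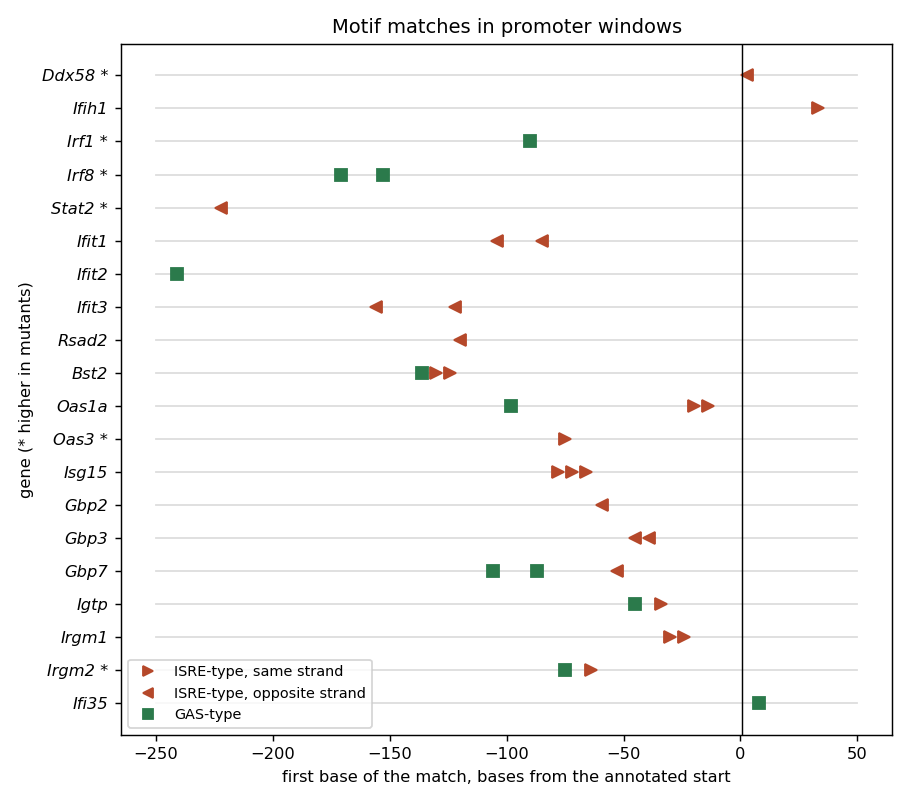
Positions of ISRE-type and GAS-type letter matches in the promoter windows of 27 interferon-stimulated genes. The x axis is the distance in bases from the start of transcription, each row is a gene with a match, and an asterisk marks those that rose in mutants. Genes with a window but no match have no row, among them Irf9 and Oasl2, which rose. Matches lie in 16 genes for the ISRE-type letters and in 9 for the GAS-type letters, in genes that rose and in genes that were not called.

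Over the whole set, the median log2 fold change was 0.66, against 0.067 for all genes tested, and 33 of 38 fold changes were above 0. The range was from -0.54 for Ifit3 to 1.99 for Zbp1. In 13 of the 38 genes all mutants lay above all controls, and in none did they all lie below. Over all genes tested 14.2% had all mutants above, and 16.1% below. No member was lower by edgeR, by DESeq2 or at an unadjusted p under 0.05, where 16 members were higher, against 18.9% of all genes. DESeq2 called 15 higher, against 14.6% of all genes, adding Dhx58, Rtp4, Oas2 and Irgm1. Without mutant 2, 17 of 38 rose and none fell by edgeR (18 rose and none fell by DESeq2, where 16.5% of all genes rose), where 15.2% of all genes rose and 18.3% fell (33.5% in either direction), no member was lower at an unadjusted p under 0.05, and the median was 0.55, against 0.025 for all genes. The 17 held all 11 called with every library. In 16 the remaining mutants lay above all controls, against 19.8% of all genes, and in Gbp3 they lay below, against 21.7%.

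The number called also depended on other libraries, as did the share of all genes that rose. It was 6 without mutant 4, control 1 or control 3, where 5.21%, 4.08% and 4.32% of all genes rose, and 7 without control 4, where 5.77% of all genes did. Without control 2 it was 11, where 4.79% of all genes rose. With both squamous libraries left out 6 were called, against 3.67% of all genes, and Zbp1, Irf8, Irf9, Oas3 and Parp9 were not called. Ddx58, Irf1, Irf9, Stat2, Oasl2 and Parp14 were called whichever 1 library was left out. In bulk tissue, fewer cells of a type and less RNA per cell cannot be told apart.

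**Figure D2:**
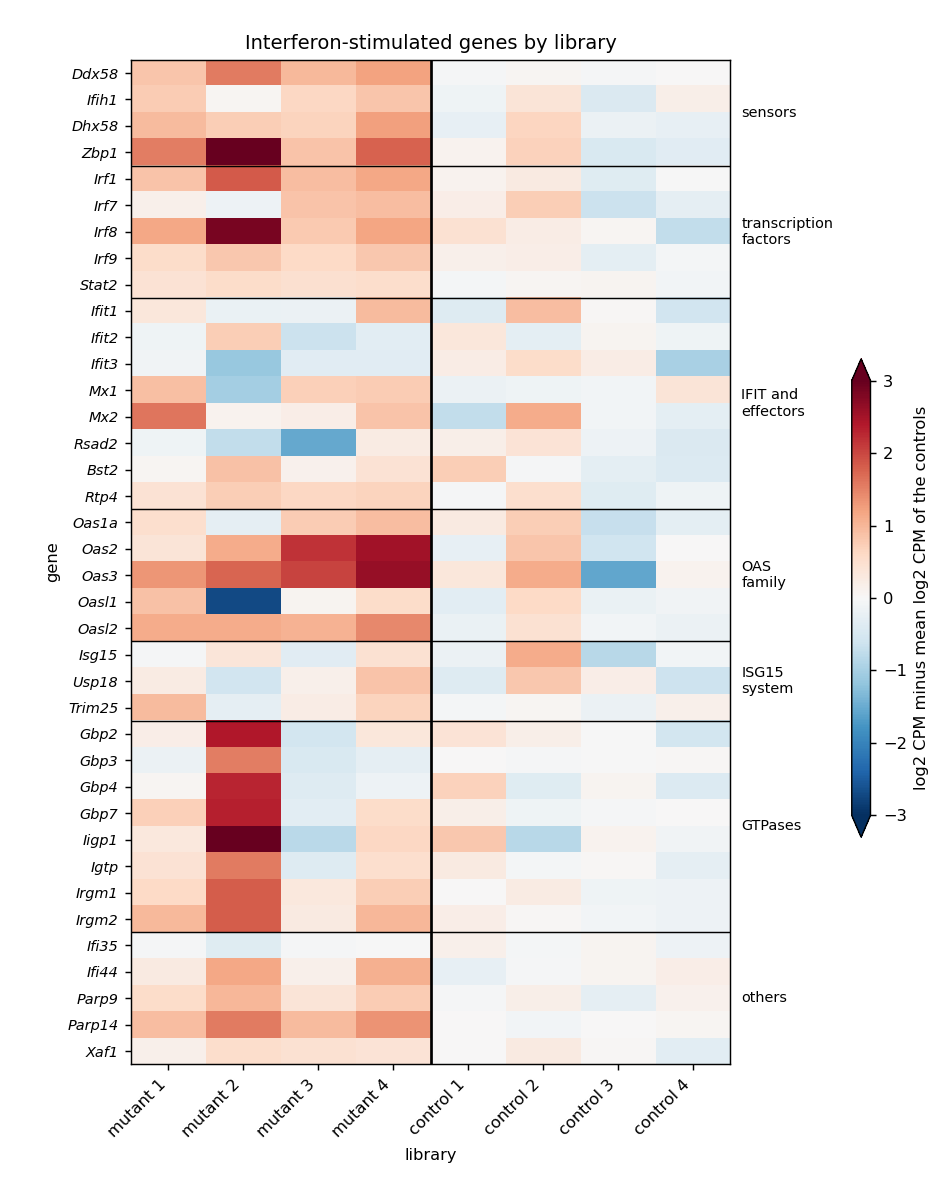
Log2 CPM of each interferon-stimulated gene in each library, minus the mean log2 CPM of the controls, with mutants 1 to 4 in the left columns and controls 1 to 4 in the right ones. Colours are limited at 3 log2 units in either direction and rows are grouped by role. Mutant 2 is the highest mutant for all 8 inducible GTPases and holds the lowest mutant values of Oasl1, Mx1 and Trim25.

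**Figure D3:**
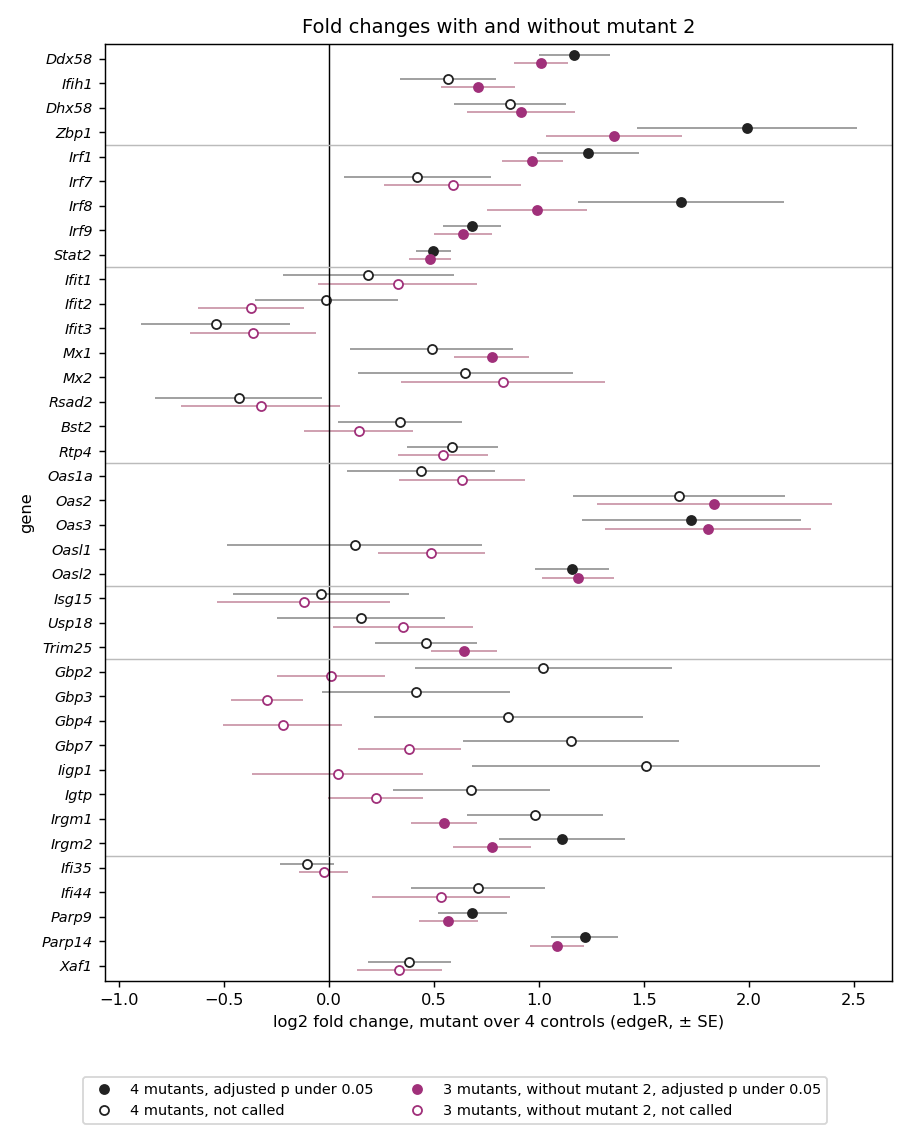
Log2 fold change, mutant over control, of 38 interferon-stimulated genes with all libraries and without mutant 2, grouped by role, with bars of 1 SE. The 11 genes called with all libraries stay above 0 in both, while the Gbp genes and Iigp1 move toward or past 0 without mutant 2.

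Of 4 sensors of viral RNA and DNA 2 rose, and all 4 did so without mutant 2, with a median log2 fold change of 1.02, and 0.96 without mutant 2. Ddx58 (ENSMUSG00000040296, chromosome 4, 40203773 to 40239828), which encodes the RNA sensor RIG-I, was at 20.7, 34.4, 22.9 and 26.8 CPM in mutants, against 11.4, 12.2, 11.3 and 11.8 CPM in controls. All mutants lay above all controls, and the controls were within a narrow band. Its log2 fold change was 1.17 (SE 0.169, edgeR adjusted p = 0.00354), and 1.01 without mutant 2 (adjusted p = 0.000195). Zbp1 (ENSMUSG00000027514), a sensor of Z-form nucleic acid that can start necroptosis, was at 6.83, 20.4, 4.22 and 7.95 CPM in mutants, against 2.51, 3.81, 1.72 and 1.85 CPM in controls. Mutant 2 was by far the highest, and mutant 3 lay just above control 2. Zbp1 had a log2 fold change of 1.99 (SE 0.523, edgeR adjusted p = 0.0316), and 1.36 without mutant 2 (adjusted p = 0.00772). Without mutant 4, control 1, control 3 or control 4 Zbp1 was not called (adjusted p of at most 0.0909).

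The other sensors were called when mutant 2 was left out. Ifih1, encoding MDA5, a sensor of long double-stranded RNA, was at 25.6, 15.7, 22.9 and 26.9 CPM in mutants, against 13.8, 19.7, 11.02 and 16.96 CPM in controls. Mutant 2 lay among the controls. Ifih1 had a log2 fold change of 0.57 (SE 0.228, edgeR adjusted p = 0.111) with every library and 0.71 without mutant 2 (adjusted p = 0.0102). Dhx58, encoding LGP2, a regulator of both RNA sensors, was at 8.40, 7.26, 6.97 and 10.2 CPM in mutants, against 3.70, 6.77, 3.89 and 3.70 CPM in controls. Control 2 came close to the lowest mutant. Its fold change was 0.86 on the log2 scale (SE 0.266, edgeR adjusted p = 0.0530), and 0.92 without mutant 2 (adjusted p = 0.0179). Without control 2 Dhx58 was called too (1.12, adjusted p = 0.0243).

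Of 5 transcription factor genes 4 rose, with and without mutant 2, and Irf7 did not pass. Their median log2 fold change was 0.68, and 0.64 without mutant 2. Stat2 (ENSMUSG00000040033, chromosome 10, 128270559 to 128292849), which joins Irf9 in the complex that binds the ISRE, was at 45.3, 48.6, 46.6 and 47.6 CPM in mutants, against 32.02, 34.6, 35.2 and 31.6 CPM in controls. Each group was tight, the groups were far apart, and the log2 fold change of 0.50 (SE 0.083) passed (edgeR adjusted p = 0.00595). Irf9 (ENSMUSG00000002325), its DNA-binding partner, averaged 33.5 ± 3.18 CPM in mutants and 20.9 ± 3.10 CPM in controls (SD, n = 4 each), a log2 fold change of 0.68 (SE 0.136, edgeR adjusted p = 0.0115). Irf9 shares 123 bases on the same strand with Rnf31, so some reads may have been split between the genes.

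Irf1 and Irf8 rose most in mutant 2. Irf1 (ENSMUSG00000018899, chromosome 11, 53770014 to 53778374), the factor that carries much of the type II response, was at 44.3, 87.6, 46.6 and 54.5 CPM in mutants, against 26.4, 29.4, 19.1 and 24.1 CPM in controls. All mutants lay above all controls. Its log2 fold change was 1.23 (SE 0.242, edgeR adjusted p = 0.0112), and 0.97 without mutant 2 (adjusted p = 0.000553). Irf8 (ENSMUSG00000041515), a factor of macrophages, dendritic cells and B cells that type II interferon also induces, was at 20.3, 65.1, 15.8 and 20.6 CPM in mutants, against 12.5, 10.7, 9.43 and 5.49 CPM in controls. Mutant 2 was far above the next mutant, and the others lay above every control. Irf8 had a log2 fold change of 1.68 (SE 0.490, edgeR adjusted p = 0.0452), and 0.99 without mutant 2 (adjusted p = 0.00842). Irf8 was not called without mutant 1, mutant 4 or any 1 control (adjusted p of at most 0.110). Irf7, the factor that amplifies type I interferon production, was at 17.3, 13.9, 28.1 and 29.1 CPM in mutants, against 17.6, 25.7, 9.81 and 12.8 CPM in controls. The groups overlapped, and the log2 fold change of Irf7 was 0.42 (SE 0.350, edgeR adjusted p = 0.415).

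In the Ifit genes and the other direct antiviral effectors no gene of 8 was called by edgeR, 1 had an unadjusted p under 0.05 and DESeq2 called 1, and their median log2 fold change was 0.26. Ifit1, whose product binds foreign RNA ends, was at 6.10, 4.16, 4.26 and 9.28 CPM in mutants, against 3.70, 9.07, 4.90 and 3.22 CPM in controls. The highest library of each group was alike, and the log2 fold change was 0.19 (SE 0.407, edgeR adjusted p = 0.769). Ifit2 and Ifit3 had log2 fold changes of -0.01 (SE 0.338) and -0.54 (SE 0.355), and Rsad2, encoding viperin, -0.43 (SE 0.398), with adjusted p of at least 0.305. These 3 genes and Ifit1 had at most 10.5 CPM in any library. Reads of Ifit3 may be shared with a near-identical copy, Ifit3b.

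Rtp4, a chaperone-like gene with antiviral activity in mice, came nearest to a call in that group. It was at 9.07, 11.3, 10.3 and 10.7 CPM in mutants, against 6.58, 9.53, 5.22 and 6.15 CPM in controls. Control 2 alone reached into the mutant range. Rtp4 had a log2 fold change of 0.59 (SE 0.215, edgeR adjusted p = 0.0858), and without control 2 Rtp4 was called (log2 fold change 0.79, adjusted p = 0.0384). Mx1, a dynamin-like GTPase active against influenza viruses, was at 14.1, 3.67, 12.3 and 12.6 CPM in mutants, against 6.58, 6.90, 7.07 and 9.79 CPM in controls. Mutant 2 was the lowest of all libraries and the other mutants were above every control. For Mx1 the log2 fold change was 0.49 (SE 0.387, edgeR adjusted p = 0.391) with every library and 0.78 without mutant 2 (adjusted p = 0.00653). Mx2 was annotated as a polymorphic pseudogene and had a mean of 0.376 FPKM, a level per length, over the 8 libraries. Bst2, encoding tetherin, which holds budding virus at the membrane, was at 16.7, 29.7, 17.7 and 21.8 CPM in mutants, against 26.9, 15.6, 13.2 and 12.1 CPM in controls. Control 1 was above all mutants but one, and the log2 fold change was 0.34 (SE 0.296, edgeR adjusted p = 0.436).

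The oligoadenylate synthetase family, whose active members make the messenger that turns on the RNA-cutting enzyme RNase L, had 2 of 5 genes higher, and 3 without mutant 2. The median log2 fold change was 1.16, and 1.19 without mutant 2. Oasl2 (ENSMUSG00000029561, chromosome 5, 114896936 to 114912234), a synthetase-like gene, was at 34.1, 33.7, 32.2 and 42.8 CPM in mutants, against 13.8, 21.5, 14.8 and 13.9 CPM in controls. All mutants lay above all controls, and mutant 2 was close to mutants 1 and 3. Its log2 fold change was 1.16 (SE 0.176, edgeR adjusted p = 0.00421), and 1.19 without mutant 2. Oas3 (ENSMUSG00000032661) was at 3.77, 4.98, 6.11 and 9.11 CPM in mutants, against 1.88, 3.22, 0.510 and 1.61 CPM in controls. The groups did not overlap, but control 3 had 8 reads. For Oas3 the log2 fold change was 1.73 (SE 0.522, edgeR adjusted p = 0.0495). Oas3 kept its call without mutant 2 or control 2 and was not called without any other 1 library (adjusted p of at most 0.119).

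Oas2 was at the threshold. It was at 9.97, 16.5, 34.5 and 43.7 CPM in mutants, against 6.45, 13.7, 5.10 and 7.70 CPM in controls. Mutants 3 and 4 were far above mutants 1 and 2, and mutant 1 was below control 2. The log2 fold change of Oas2 was 1.67 (SE 0.503), with an edgeR adjusted p just above 0.05, and 1.83 without mutant 2 (adjusted p = 0.0465). Oas2 was also called without mutant 1 (adjusted p = 0.0263). Oasl1, a synthetase-like gene known to hold back translation of Irf7, was at 160.0, 13.4, 92.2 and 129 CPM in mutants, against 70.5, 133, 76.9 and 81.5 CPM in controls. Mutant 2 was the lowest of all libraries by a wide margin, and control 2 was above 3 of the mutants. For Oasl1 the log2 fold change was 0.12 (SE 0.606, edgeR adjusted p = 0.901), and 0.49 without mutant 2 (adjusted p = 0.179). Oas1a was not called in either fit (log2 fold change 0.44, SE 0.352). This family includes near copies of some genes, so reads may have been split between such copies.

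The ISG15 system, in which a ubiquitin-like protein is attached to others, had no gene of 3 called with every library by edgeR or DESeq2, none had an unadjusted p under 0.05, and 1 was called without mutant 2. Isg15 itself (ENSMUSG00000035692, chromosome 4, 156199424 to 156200818) was at 4.20, 5.59, 3.44 and 5.90 CPM in mutants, against 3.82, 9.34, 2.42 and 4.06 CPM in controls. Control 2 was the highest library. Isg15 had a log2 fold change of -0.04 (SE 0.420, edgeR adjusted p = 0.957). Usp18, which removes ISG15 and dampens the receptor, was also not called (0.15, SE 0.402). Trim25, a ubiquitin ligase that acts on RIG-I, was at 171, 74.0, 104 and 142 CPM in mutants, against 85.6, 92.8, 78.2 and 99.1 CPM in controls. Mutant 2 was the lowest of all libraries and the other mutants were above every control. Trim25 had a log2 fold change of 0.46 (SE 0.243, edgeR adjusted p = 0.206) with every library and 0.64 without mutant 2 (adjusted p = 0.00914).

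Interferon-inducible GTPases, which attack the membranes around intracellular pathogens, were highest in mutant 2. It was the highest mutant for all 8 of them, against 38.8% of all genes tested. Their summed level was 94.1, 295, 60.4 and 97.6 CPM in mutants, against 83.7, 67.1, 67.1 and 58.7 CPM in controls. The median log2 fold change was 1.00 with every library and 0.13 without mutant 2, and 1 of 8 rose, against 2 without mutant 2. Gbp2, a guanylate-binding protein gene, was at 12.6, 58.0, 7.53 and 14.1 CPM in mutants, against 14.6, 12.4, 10.9 and 7.52 CPM in controls. Apart from mutant 2 the groups covered the same range. For Gbp2 the log2 fold change was 1.02 (SE 0.611, edgeR adjusted p = 0.261) with every library and 0.01 without mutant 2 (adjusted p = 0.982). Iigp1, an immunity-related GTPase gene on chromosome 18, was at 6.93, 50.4, 3.18 and 8.60 CPM in mutants, against 9.84, 3.16, 6.05 and 5.19 CPM in controls, and its log2 fold change was 1.51 (SE 0.831, edgeR adjusted p = 0.225), and 0.04 without mutant 2. Gbp3, Gbp4, Gbp7 and Igtp were not called in either fit. The span of Gbp4 shares 23773 bases with Gbp9 and 23774 with Gbp8 on the same strand. Reads of Gbp4 may therefore have been split with these genes.

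In the Irgm genes, which regulate the other immunity-related GTPases, the remaining mutants also lay above the controls. Irgm2 (ENSMUSG00000069874) was at 22.0, 39.3, 13.4 and 22.1 CPM in mutants, against 12.8, 11.4, 10.6 and 9.97 CPM in controls. Mutant 3 was just above control 1. The log2 fold change of Irgm2 was 1.11 (SE 0.299, edgeR adjusted p = 0.0345), and 0.78 without mutant 2 (adjusted p = 0.00826). Irgm2 was not called without mutant 1, mutant 4 or any 1 control (adjusted p of at most 0.0940). Its span shares 7974 bases on the same strand with Igtp, so reads may have been split between these genes. Irgm1 was at 17.97, 42.2, 14.8 and 19.8 CPM in mutants, against 12.1, 14.2, 10.96 and 10.7 CPM in controls. The groups did not overlap, and the log2 fold change of Irgm1 was 0.98 (SE 0.325, edgeR adjusted p = 0.0659), and 0.55 without mutant 2 (adjusted p = 0.0190). Irgm1 was called without mutant 3 as well (adjusted p = 0.0396). Whether the Irgm genes changed differently from the Gbp genes was not tested.

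**Figure D4:**
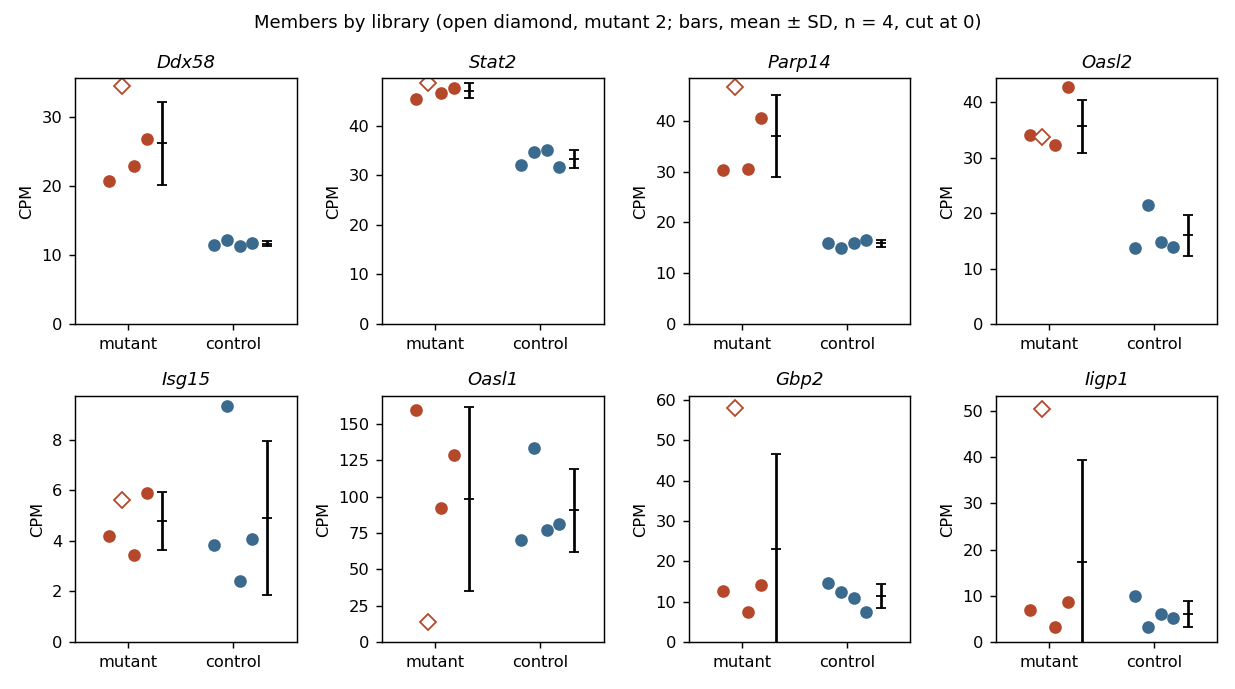
Level in CPM of 8 interferon-stimulated genes in each mutant (left) and control (right), with the group mean and SD, mutant 2 as an open diamond and error bars cut at 0. Ddx58, Stat2, Parp14 and Oasl2 have groups that do not overlap, Isg15 and Oasl1 overlap, and Gbp2 and Iigp1 are high in mutant 2 alone.

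Among the other induced genes, 2 of 5 tested rose, and both encode ADP-ribosyltransferase family proteins. Parp14 (ENSMUSG00000034422, chromosome 16, 35832874 to 35871544) had the smallest p of all members. It was at 30.2, 46.7, 30.5 and 40.5 CPM in mutants, against 16.0, 15.0, 16.0 and 16.5 CPM in controls. All mutants lay above all controls, which were nearly equal. The log2 fold change of Parp14 was 1.22 (SE 0.160, edgeR adjusted p = 0.00243), and 1.09 without mutant 2 (adjusted p = 0.000122). Parp9, its neighbour on the chromosome, was at 25.6, 34.6, 22.8 and 29.7 CPM in mutants, against 17.1, 19.6, 14.4 and 19.0 CPM in controls. The groups did not overlap, and the log2 fold change of Parp9 was 0.68 (SE 0.163, edgeR adjusted p = 0.0224). Parp9 was not called without mutant 4, control 1 or control 3 (adjusted p of at most 0.0649).

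Ifi35, whose product binds other interferon-induced proteins, was level. It was at 20.3, 16.1, 20.4 and 20.7 CPM in mutants, against 22.9, 19.9, 21.8 and 18.7 CPM in controls. Mutant 2 was lowest and the groups overlapped. The log2 fold change of Ifi35 was -0.10 (SE 0.128, edgeR adjusted p = 0.586), and with column totals in place of scaled sizes it became 0.59 (adjusted p = 0.00577), where the median of all genes moved by 0.70. Ifi44 and Xaf1 were not called (0.71, SE 0.319, and 0.38, SE 0.198). Ido1, which degrades tryptophan and is a classic target of type II interferon, had 6, 56, 5 and 12 reads in mutants, against 1, 1, 5 and 1 in controls, and did not pass the filter on low counts.

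Per length, over all 8 libraries, Oasl1 was the most abundant member with a mean of 36.1 FPKM. Bst2 with 21.2, Trim25 with 18.3, Ifi35 with 11.6, Irf1 with 10.4 and Oas1a with 10.3 FPKM came next. The range over libraries was 5.12 to 61.1 FPKM for Oasl1, 13.3 to 32.8 for Bst2 and 12.8 to 29.6 for Trim25, so that these neighbours in the order did not differ beyond their spread. The least abundant were Ido1 with 0.254, Ifi44 with 0.336, Mx2 with 0.376 and Oas3 with 0.548 FPKM.

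Single animals stood out within groups. Mutant 2 was the highest mutant for 22 of the 39 genes (56.4%, against 38.8% of all genes tested) and the lowest for 11 (28.2%, against 41.7%). Control 2 was the highest control for 22 of the 39 (56.4%), against 23.8% of all genes tested, among them Isg15, Ifit1, Oasl1 and Oas2. Mutant 3 was the highest mutant for none of the 39, against 23.1% of all genes tested. Summed over the 39 genes the level was 871, 962, 728 and 940 CPM in mutants, against 557, 667, 486 and 514 CPM in controls, and these sums did not overlap.

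Genes that make, receive and relay the interferon signal were looked at as a list of 41, of which 30 were tested. In it 8 rose (26.7%) and 1 fell, against 9.39% and 10.8% of all genes tested, and the median log2 fold change was 0.54, against 0.067. Without mutant 2, 12 rose and 1 fell, against 15.2% and 18.3% of all genes. The number that rose was 4 without control 1 or control 3, and 5 without control 2 or control 4, where the share of all genes that rose was between 4.08% and 5.77%. Transcripts of the interferons themselves were at or near 0. Of 11 ligand genes none passed the filter on low counts, and 8 had no read in any library, among them Ifnb1. The read counts of Ifng, encoding type II interferon, were 0, 24, 1 and 0 in mutants, against 3, 0, 0 and 0 in controls. Those of Ifne, a type I interferon known from epithelium, were 28, 0, 10 and 3 in mutants, against 3, 4, 0 and 4 in controls. Ifng, Ifne, Ifnb1 and the genes of the next sentences that no rule picked were named after their values were seen.

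Among receptors 1 of 6 rose, Ifngr2, a chain of the type II receptor (log2 fold change 0.52, SE 0.138, edgeR adjusted p = 0.0329), and 3 without mutant 2. Among kinases and STATs 2 of 5 rose, Jak1 and Stat3. Stat3, which many cytokines activate and which tempers interferon signalling, was at 191, 247, 170 and 205 CPM in mutants, against 99.6, 111, 106 and 124 CPM in controls. The groups were far apart, and the log2 fold change of Stat3 was 0.88 (SE 0.142, edgeR adjusted p = 0.00523).

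Of 7 genes listed as negative regulators, which included the induced effector gene Isg20, 2 rose, and 3 without mutant 2. Socs3, a feedback inhibitor of cytokine receptors, was at 59.9, 182, 29.7 and 113 CPM in mutants, against 17.5, 27.7, 13.8 and 15.2 CPM in controls. Mutant 3 was just above control 2. The log2 fold change of Socs3 was 2.37 (SE 0.534, edgeR adjusted p = 0.0186), and Socs3 was not called without control 1, control 3 or control 4 (adjusted p = 0.0615, 0.0608 and 0.0563). Ptpn2, a phosphatase of STAT proteins, had a log2 fold change of 1.13 (SE 0.209, edgeR adjusted p = 0.00909), and its groups did not overlap.

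In the upstream sensing and relay genes Mb21d1, Ikbke and Tlr3 rose and Mavs fell, 3 and 1 of 12, and 4 rose and 1 fell without mutant 2. Mb21d1, encoding the DNA sensor cGAS, was at 4.20, 6.49, 4.09 and 5.39 CPM in mutants, against 1.19, 1.84, 1.02 and 1.73 CPM in controls. The groups did not overlap, and the log2 fold change of Mb21d1 was 1.80 (SE 0.299, edgeR adjusted p = 0.00581). Ikbke, a kinase that activates IRF factors, had a log2 fold change of 1.34 (SE 0.216, edgeR adjusted p = 0.00524). Mavs, the mitochondrial adaptor through which RIG-I and MDA5 signal, moved the other way. It was at 46.9, 26.6, 53.0 and 46.5 CPM in mutants, against 71.2, 71.3, 75.9 and 79.9 CPM in controls, a log2 fold change of -0.79 (SE 0.198, edgeR adjusted p = 0.0274). Without mutant 2 it was -0.61 (adjusted p = 0.000907), and the fall was not called without mutant 4, any 1 control or both squamous libraries. With column totals as library sizes no gene of the whole list of 30 was lower.

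A further 47 genes induced by interferons but not among the 39 were listed, and 45 were tested. In them 12 rose (26.7%) and 1 fell, against 9.39% and 10.8% of all genes tested, and the median log2 fold change was 0.71, against 0.067. Without mutant 2, 16 rose (35.6%) and 1 fell, against 15.2% and 18.3% of all genes. The number that rose was 4 without control 1 or control 3, 5 without control 4, and 6 without mutant 4 or control 2. In these fits the share of all genes that rose was between 4.08% and 5.77%. Lgals3bp, a secreted galectin-binding glycoprotein gene, was at 392, 276, 319 and 345 CPM in mutants, against 161, 199, 118 and 156 CPM in controls, and mutant 2 was the lowest of the mutants. Its log2 fold change was 1.07 (SE 0.185, edgeR adjusted p = 0.00676). Dtx3l, the ubiquitin ligase that partners Parp9, had a log2 fold change of 1.06 (SE 0.199, edgeR adjusted p = 0.00936). The spans of Dtx3l and Parp9 share 682 bases on opposite strands, so without strand their reads cannot be told apart there. Pml, of the nuclear bodies, had a log2 fold change of 0.64 (SE 0.125, edgeR adjusted p = 0.0110), and Eif2ak2, the RNA-activated kinase PKR, of 0.60 (SE 0.129, edgeR adjusted p = 0.0158). With both squamous libraries left out Eif2ak2 was not called.

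Ifi27 was the one that fell. It was at 39.8, 34.7, 57.8 and 58.0 CPM in mutants, against 164, 149, 114 and 123 CPM in controls. All mutants lay below all controls, and the log2 fold change of Ifi27 was -1.53 (SE 0.208, edgeR adjusted p = 0.00286). Split by the interferon type usually linked with them, 8 of 33 tested genes of type I rose (24.2%) and 1 fell, and 4 of 12 of type II rose (33.3%), against 9.39% of all genes. Without mutant 2, 13 of type I (39.4%) and 3 of type II (25.0%) rose, against 15.2% of all genes. The type II genes were Gbp8, Ifi47 and the chemokine genes Cxcl9 and Cxcl10, and Cxcl10 was not called without mutant 2. Gbp8 overlaps Gbp4 on the same strand, so its reads may have been split. Mutant 2 was the highest mutant for 13 of the 14 type II genes in the table. Whether the types differed was not tested.

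**Figure D5:**
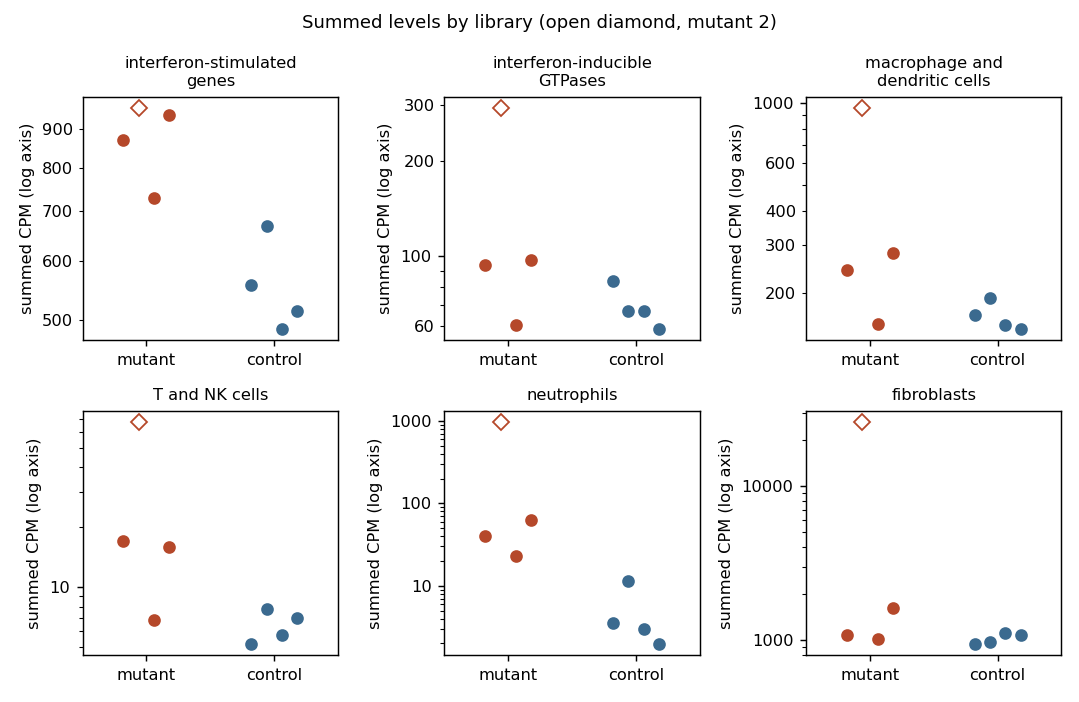
Summed CPM in mutants (left) and controls (right) on log axes, with mutant 2 as an open diamond. The panels are the interferon-stimulated genes, the inducible GTPases among them, and markers of macrophages and dendritic cells, T and NK cells, neutrophils and fibroblasts. Mutant 2 is the highest library in every panel.

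Marker sums of macrophages, neutrophils and lymphocytes were highest in mutant 2, and some of them also separated the groups. The macrophage and dendritic cell sum was 243, 960, 154 and 281 CPM in mutants, against 167, 193, 154 and 148 CPM in controls, and these sums overlapped. Of its 9 tested markers 1 rose (11.1%), near the share of all genes tested (9.39%). The neutrophil sum was 40.5, 967, 23.0 and 63.4 CPM in mutants, against 3.51, 11.3, 2.99 and 1.97 CPM in controls. Of its 5 markers 4 rose by edgeR and 2 by DESeq2. Retnlg was not called by edgeR, and its groups overlapped. These neutrophil sums did not overlap, and the defining gene Cxcr2 had 0 to 3 reads in controls. For T and NK cells the sum was 6.84 to 67.2 CPM in mutants and 5.20 to 7.76 CPM in controls, and 3 of 6 tested markers rose. The NK receptor gene Ncr1 had 1, 5, 1 and 1 reads in mutants and none in controls. Klrb1c, another marker of that list, had 5, 11, 2 and 6 reads in mutants, against 1, 4, 0 and 5 in controls. Neither Ncr1 nor Klrb1c passed the filter on low counts. For B and plasma cells the sum was 98.4 to 627 CPM in mutants and 7.64 to 30.8 CPM in controls, with 2 of 6 higher. DESeq2 called 3 macrophage and dendritic cell markers higher, 4 of T and NK cells and 3 of B and plasma cells. The macrophage and dendritic cell marker that rose was Itgax, an integrin gene, with a log2 fold change of 1.76 (SE 0.381, edgeR adjusted p = 0.0161), and 1.46 without mutant 2 (adjusted p = 0.00428). Without mutant 2 the neutrophil sums and the B and plasma cell sums of the groups still did not overlap, while the macrophage and dendritic cell sums did.

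Plasmacytoid dendritic cells are the chief makers of type I interferon. Their list of 5 markers summed to 653, 205, 347 and 394 CPM in mutants, against 152, 141, 124 and 143 CPM in controls, and these sums did not overlap. Of the single markers only Ly6d had groups that did not overlap. Ly6d was at 543, 78.3, 172 and 267 CPM in mutants, against 48.3, 39.6, 27.8 and 42.2 CPM in controls. Siglech and Ccr9 added little to the sums, with at most 2.29 and 1.47 CPM in any library. Of the 3 markers tested 1 rose, Ly6d (log2 fold change 2.75, SE 0.545, edgeR adjusted p = 0.0116), and without mutant 2 Klk1 rose as well (1.56, adjusted p = 0.0242). Both Ly6d and Klk1 are also known from epithelia. Tcf4 was not called in either fit. Siglech, the gene that defines these cells, had 11, 56, 1 and 1 reads in mutants, against 8, 5, 5 and 9 in controls, and the reads of Ccr9 were 29, 36, 10 and 3 in mutants, against 2, 2, 0 and 1 in controls. Neither passed the filter on low counts.

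Stromal and epithelial lists moved too. The fibroblast sum was 1009 to 26080 CPM in mutants and 942 to 1101 CPM in controls, with mutant 2 at the top and 1 of 5 genes higher, and the endothelial sum was 102 to 650 CPM in mutants and 139 to 174 CPM in controls, with none of 5 called by edgeR or DESeq2 or at an unadjusted p under 0.05. Without mutant 2, 4 of the 5 endothelial markers fell, namely Pecam1, Kdr, Tek and Emcn, the remaining mutants lay below all controls in each of them, and the sum was 102 to 103 CPM in mutants. The corpus epithelium sum was 10577 to 85633 CPM in mutants and 313602 to 504771 CPM in controls, and in 7 of 9 markers all mutants lay below all controls. By edgeR 2 fell (Pgc and Atp4a), 6 fell by DESeq2, and 7 fell without mutant 2. Muc6 and Tff2, genes of mucous neck cells, rose in both fits. The labelled tissue's defining genes thus had reads in both groups, but Atp4a and Atp4b were nearly absent from mutant 2. Atp4a had 108 reads there (4.41 CPM, against 9763 to 13058 CPM in controls). Atp4b had 22 reads there (0.898 CPM, against 3697 to 4375 CPM in controls). All 5 smooth muscle markers fell, with sums of 229 to 745 CPM in mutants and 2592 to 3550 CPM in controls. What part these cell types had in the interferon-stimulated genes was not tested.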

How the data were processed

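RNA of the stomach corpus of 4 mutant and 4 control mice was sequenced as polyA libraries (NEBNext Ultra RNA kit), according to the labels' protocols. For each gene the authors deposited raw counts and FPKM. The submitters' processing notes name featureCounts, STAR 2.5, fastp and CASAVA but not their roles. Neither genome build nor strandedness of counting is given in the sources used here. Genes that overlap, and near-identical copies, are therefore uncertain. Of the 39 genes, 38 had the same coordinates in GENCODE M21 (GRCm38), and coordinates are those of the count table. The FPKM imply library sizes 1.00 to 1.01 times the TMM sizes, so fits on FPKM are no separate check of the scaling.

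The members, the further lists and the tests were chosen with earlier results of these data known. Columns were matched to samples by name, with SCI taken as SC1 among the controls. The design text speaks of biological replicates, so 1 library was taken as 1 animal. Libraries of a group all differed by more than sampling noise (chi-square over degrees of freedom of at least 14.8). A floor of 3 counts was 0.100 to 0.129 CPM in mutants and 0.179 to 0.197 CPM in controls, and reflects counting error alone.

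The low-count filter was filterByExpr of edgeR, scaling used TMM factors, and the robust quasi-likelihood test of edgeR (edgeR 4.0.16, R 4.3.3) was run on all libraries, and again without mutant 2, with Benjamini-Hochberg adjustment over all genes tested. The SE is the fitted log2 coefficient over the root of its F value. Named were the member of each role group with the smallest p and the most abundant one, the 5 largest rises, members called in 1 of the 2 fits, and 5 genes of each further list. The other members were named to account for all 39. The values of 1 gene of the signalling list are not reported here. Alternatives were DESeq2 1.42.0, RLE size factors, column totals, dropping the low-count filter, a filter at 1 CPM in 4 libraries, a block for the replicate number, limma-trend (limma 3.58.1) on log2(FPKM + 1), filtered at a mean of 0.5 FPKM or unfiltered, or on log2(FPKM + 0.1), both squamous libraries left out, and each library left out in turn. The scripts were tested on simulated data. The replicate number was not taken as a pairing of libraries. Promoter windows are from RefSeq (GRCm38.p6), and motif letters were searched on both strands.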

Additional observations from a re-analysis of the deposited data

Results flagged for a closer look

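In each group of 4, a library was singled out where its gap to the next library, relative to the group's whole range, was over Dixon's 95% critical value. Of 78 groups examined 11 had such a library, and chance gives about 1 in 20. Mutant 2 accounted for 7 of the 11. It was the highest mutant for Irf8 at 65.1 CPM, Gbp2 at 58.0 CPM, Gbp3 at 21.7 CPM, Gbp4 at 26.5 CPM, Iigp1 at 50.4 CPM and Ido1 at 2.29 CPM, and the lowest mutant for Ifi35 at 16.1 CPM. In controls, control 2 was the highest for Oasl2 at 21.5 CPM and for Dhx58 at 6.77 CPM, control 4 was the highest for Mx1 at 9.79 CPM, and control 3 was the highest for Ido1 at 0.318 CPM, which rests on 5 reads. The causes were not tested.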

How the results depend on the processing

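Of 860 fold changes of single genes under the alternatives, 831 had the sign reported. With column totals as library sizes the median over all genes was 0.70 higher on the log2 scale. They gave 10136 genes called (9412 higher and 724 lower, so that 92.9% of calls were higher, against 46.4%), 29 interferon-stimulated genes higher with every library and 31 without mutant 2, 28 signalling genes higher and 0 lower, and 35 further induced genes higher. The median of the 38 genes was then 1.36, which is 0.59 above that of all genes, against 0.60 with TMM factors, and Ifi35 turned to 0.59. DESeq2 gave 14 signalling genes higher and 2 lower, and 20 further induced genes higher and 2 lower. Limma-trend on log2(FPKM + 1) gave 7 further induced genes higher. Without its filter it gave 7 interferon-stimulated genes higher, 5 signalling genes higher and 0 lower, and 5 further induced genes higher. Leaving out both squamous libraries gave 1410 genes called, 6 interferon-stimulated genes higher, 5 signalling genes higher and 0 lower, and 5 further induced genes higher. Leaving out 1 library at a time gave 1717 to 5400 genes called, 6 to 17 interferon-stimulated genes higher (12 to 22 without mutant 2 as well), 0 lower (0 to 1 without mutant 2 as well, the one being Ifit3 without control 4), 4 to 12 signalling genes higher and 0 to 1 lower, 4 to 16 further induced genes higher and 1 lower, and medians of 0.55 to 0.74. Apart from the construction of the scalings and the smaller sample numbers, the cause was not tested.

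Libraries with the same replicate number had little in common across all genes, but mutant 3 and control 3 both held squamous transcripts. Control 3 was also the best match of mutant 3, while each other mutant matched best a control of another number. Whether same-numbered libraries were handled together was not tested. Deviations of same-numbered libraries from their group means correlated at 0.064, -0.111, 0.051 and 0.0017. With the replicate number as a block 1824 genes were called and 8 interferon-stimulated genes were higher, with Irf8, Oas3 and Irgm2 no longer called. P-values measure the spread between 4 animals a group. The largest SE among the members tested were those of Iigp1 (0.831), Gbp4 (0.640), Gbp2 (0.611) and Oasl1 (0.606). That of Oas3, a gene with few reads, was 0.522. Ido1, also with few reads, was not tested and has no SE.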
